A study of Mus musculus with 8 samples.

Results

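The 2'-5' oligoadenylate synthetase (Oas) family was measured in 8 mouse liver libraries through 8 genes: Oas1a, Oas1g, Oas1b, Oas1c, Oas2, Oas3, Oasl1 and Oasl2. They were taken by gene symbol from the 25229 genes of the deposited tables, in which reads on each gene's own strand were counted by bulk RNA sequencing. The series asks how loss of the RNA-editing enzyme ADAR1 in hepatocytes alters liver expression in mice without the RNA sensor MDA5. Every mouse was of strain C57BL/6, was Ifih1-/- (Ifih1 encodes MDA5) and carried Alb-Cre, a recombinase driven by the albumin promoter and so active in hepatocytes. The flox/flox group (both Adar1 alleles floxed) held 3 mice: replicate 1 was 11 weeks old and labelled female, replicate 2 was 9 weeks old and labelled male, and replicate 3 was 7 weeks old and labelled female. The wt/flox group held 2 mice labelled male, aged 11 weeks (replicate 1) and 9 weeks (replicate 2). The wt/wt group held 3 mice: males of 11 weeks (replicate 1) and 9 weeks (replicate 2) and a female of 7 weeks (replicate 3), by label. For flox/flox the series' design text states n = 2, but the labels give that genotype to 3 samples, which all entered the fits. No group had an intact Ifih1 gene, so the family was not measured with MDA5 present.

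In vertebrate cells, Oas enzymes bind double-stranded RNA and join ATP into short 2'-5'-linked oligoadenylates, a second messenger of antiviral defence. Most family members are interferon-stimulated genes: type I interferon acts through a complex that contains STAT2 and IRF9 on a promoter element called the interferon-stimulated response element (ISRE). In liver, hepatocytes, Kupffer cells and endothelial cells can all respond to interferon.

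All 8 genes lie on chromosome 5 (GRCm38, GENCODE M21), in 2 clusters. Oasl2 (chr5:114896936-114912234) and Oasl1 (chr5:114923240-114937915) are neighbours on the plus strand. The other cluster holds Oas2, Oas3, Oas1c, Oas1b, Oas1g and Oas1a, in that order along the chromosome, from 120730333 to 120907521. Among the members in this cluster, Oas1b alone is read from the plus strand. Oas1e, Oas1f and Oas1h, which are not among the 8 genes, lie in the same span. Of these, Oas1f and Oas1h are also read from the plus strand. Oas1b and Oas1c point away from each other, with 120 bases between their starts.

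The RefSeq promoter table (GRCm38.p6) held 6 of the 8 members, Oas1b and Oas2 not among them, and was searched for the ISRE core because the members moved together across libraries. The core was written as GAAA, then any pair of bases, then GAAA again, and was sought on both strands of the 250 bases before each gene's start. It was found in 4 of the 6 members (Oas1a, Oas1g, Oas1c and Oas3) and in neither Oasl1 nor Oasl2. Over all 32851 promoters in the table, 2.98% held it. The 30 bases around each match are shown here in the direction of the motif, with the matched letters in capitals. The sites are chr5:120907523-120907552 (minus strand) for Oas1a, chr5:120887609-120887638 (minus) for Oas1g, chr5:120812606-120812635 (plus) for Oas1c and chr5:120777715-120777744 (minus) for Oas3.

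Oas1a: ttctcggGAAATGGAAACTGAAAatctact
Oas1g: ttctcggGAAATGGAAACTGAAAatctact
Oas1c: ttcccggGAAATGGAAACTGAAAgtcccat
Oas3: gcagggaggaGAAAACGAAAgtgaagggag

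Oas1a and Oas1g had the same letters at 30 of 30 bases, and Oas1c and Oas1g at 25 of 30. The matches in these Oas1 copies should therefore not be counted as independent of each other. Each of the first 3 sites held 2 overlapping copies of the core, and the Oas3 site held 1. The Oas1c site reads toward Oas1b: its capitals lie in the 120 bases between both starts, and its last base is the first annotated base of Oas1b. In Oas1a the matched letters lie before the start used by the table and overlap the outermost start that RefSeq annotates. The 120 bases before the start are printed for Oas1g, which held the core, and for Oasl2, which held no exact match to it. They are chr5:120887614-120887733 (minus strand) and chr5:114896806-114896925 (plus strand).

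Oas1g: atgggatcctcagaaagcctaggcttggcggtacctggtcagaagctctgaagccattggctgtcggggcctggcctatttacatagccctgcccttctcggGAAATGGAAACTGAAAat
Oasl2: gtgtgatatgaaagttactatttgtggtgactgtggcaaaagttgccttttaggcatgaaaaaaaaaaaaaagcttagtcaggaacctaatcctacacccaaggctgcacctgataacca

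These matches describe letters, and no binding was measured. Only exact matches to the core were sought, so Oasl1 and Oasl2 may hold response elements that differ from it.

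The libraries held 75875711 to 132303735 sense gene reads. The names of the deposited tables mark every flox/flox and wt/flox table, and no wt/wt table, as batch 2. The labels do not say what that mark stands for. Genotype and this mark cannot be told apart in any comparison with wt/wt, while flox/flox and wt/flox share it. The labelled sex went against sex-linked transcripts in 2 flox/flox libraries: replicate 1, labelled female, had 31 Xist reads and 21255 Y-linked reads, and replicate 2, labelled male, had 246646 Xist reads and 0 Y-linked reads. Ifih1 had 0 to 4 reads per library. Adar had 49.4, 35.9 and 42.1 CPM in flox/flox, 22.0 and 31.8 CPM in wt/flox and 28.1, 30.0 and 53.6 CPM in wt/wt, and was not lower in flox/flox. CPM are sense counts divided by the TMM-adjusted library size, on the usual CPM scale. Whole-gene reads of a floxed gene include exons outside the deleted stretch, so they do not check the deletion.

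Oas1a and Oas1g, the pair known as active synthetases among the mouse Oas1 copies, had the widest ranges together with Oasl2. Oas1a (chr5:120896256-120907521) had 16.7, 0.50 and 6.50 CPM in flox/flox replicates 1, 2 and 3, 0.363 and 1.11 CPM in wt/flox replicates 1 and 2, and 0.538, 0.820 and 25.8 CPM in wt/wt replicates 1, 2 and 3. Flox/flox 1 and 3 and wt/wt 3 were high and the other 5 low, so flox/flox and wt/wt overlapped throughout. Oas1g (chr5:120876142-120887613) had 7.47, 0.188 and 2.53 CPM in flox/flox, 0.0117 and 0.256 CPM in wt/flox, and 0.122, 0.194 and 9.03 CPM in wt/wt. Its high libraries were those of Oas1a. In wt/flox replicate 1 it rested on 1 read. Within flox/flox the highest library was 33.3 times the lowest for Oas1a and 39.8 times for Oas1g, and within wt/wt 48.0 and 74.1 times. Of the 100-base windows of the annotated transcripts, 730 were identical between both genes, which is 40.9% of the windows of Oas1a and 31.3% of those of Oas1g. Reads placed at several sites were tallied apart in the files, so both levels are uncertain, and how reads were split between them is not known. For the other 6 members 0 windows were shared within the family.

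Oas1b (chr5:120812635-120824163) encodes the flavivirus resistance factor of mice and is cut short by a premature stop in C57BL/6; the annotation calls it a polymorphic pseudogene. It had 2.92, 1.57 and 2.57 CPM in flox/flox, 0.620 and 1.31 CPM in wt/flox, and 0.842, 0.955 and 2.91 CPM in wt/wt. It varied least of the family within flox/flox, where the highest library was 1.86 times the lowest. Its divergent neighbour Oas1c (chr5:120800194-120812514), an Oas1 copy with no known synthetase activity, had 1.40, 0.795 and 2.42 CPM in flox/flox, 0.234 and 0.639 CPM in wt/flox, and 0.832, 1.29 and 2.31 CPM in wt/wt. The lowest flox/flox libraries of both genes stood above the highest wt/flox library, while both overlapped with wt/wt. The ratio of Oas1b to Oas1c reads ran from 1.06 to 2.09 in flox/flox, from 2.04 to 2.65 in wt/flox and from 0.743 to 1.26 in wt/wt.

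Oas2 (chr5:120730333-120749853) and Oas3 (chr5:120753098-120777661), whose proteins carry repeated synthetase domains, had the lowest medians of the family per length of transcript. Oas2 had 1.14, 0.340 and 1.74 CPM in flox/flox, 0.152 and 0.355 CPM in wt/flox, and 0.325, 0.321 and 3.29 CPM in wt/wt. Oas3 had 0.655, 0.232 and 1.11 CPM in flox/flox, 0.222 and 0.185 CPM in wt/flox, and 0.264, 0.381 and 4.65 CPM in wt/wt. The same 3 libraries were the highest for both genes. Oas3 stood furthest out in wt/wt replicate 3, with 509 reads, against 26 and 45 reads in the other wt/wt libraries and 146 reads in the highest flox/flox library.

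Oasl1 (chr5:114923240-114937915), which in mice holds back translation of Irf7, was the most abundant member per length in 8 of 8 libraries. It had 32.4, 8.36 and 16.4 CPM in flox/flox, 5.85 and 12.3 CPM in wt/flox, and 13.7, 19.9 and 45.7 CPM in wt/wt. It was also the 1 member for which a labelled male (wt/wt 2) exceeded a labelled female (flox/flox 3). Oasl2 (chr5:114896936-114912234), which carries ubiquitin-like domains behind its synthetase domain, had 13.3, 0.786 and 6.13 CPM in flox/flox, 0.468 and 0.483 CPM in wt/flox, and 0.568, 0.693 and 30.8 CPM in wt/wt. Its 3 high libraries were those of Oas1a, and its 5 low ones lay close together. The wt/wt libraries spanned 54.2 times from lowest to highest for Oasl2, against 3.35 times for Oasl1, so adjacent genes had unlike ranges.

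**Figure D1:**
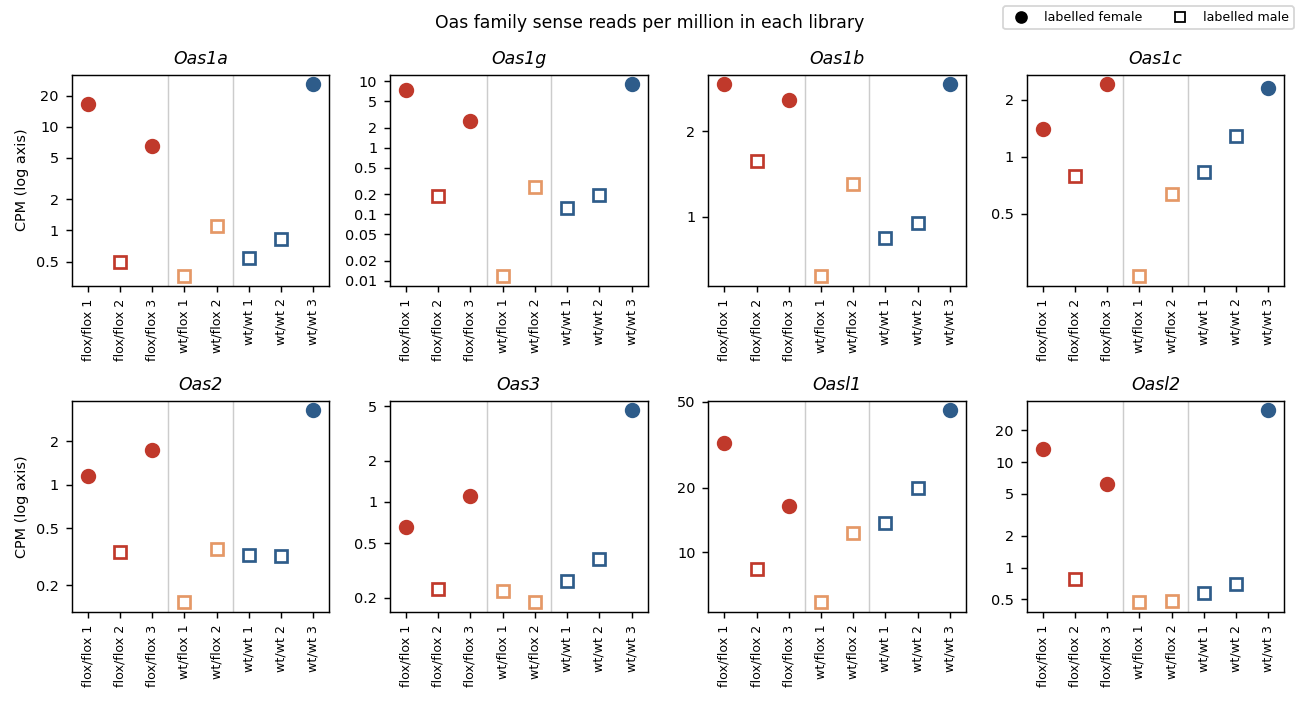
Sense reads in CPM (log axis) of each family member in each library, by genotype and replicate; filled circles are labelled female and open squares labelled male. Flox/flox replicates 1 and 3 and wt/wt replicate 3 are the 3 highest libraries for 7 of the 8 genes, and Oasl1 overlaps.

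Per kilobase of annotated exon, median levels over the 8 libraries were 5.76 CPM per kb for Oasl1, 0.723 for Oas1b, 0.511 for Oas1a, 0.440 for Oas1c, 0.116 for Oasl2, 0.0962 for Oas1g, 0.0780 for Oas2 and 0.0456 for Oas3. The range of Oasl1 lay above that of Oas1b, and each later gene overlapped with the next one in this order. The lengths include stretches that Oas1a and Oas1g share, so the places of both genes in the order are uncertain. The order was not fixed. In the 3 labelled females Oas1a (median 8.84 CPM per kb), Oas1g (3.19) and Oasl2 (2.09) followed Oasl1 (12.4) and preceded Oas1b (1.46). In the 5 labelled males Oas1b (0.480) and Oas1c (0.331) came next after Oasl1 (4.72), before Oas1a (0.285). The labelled females are the 3 libraries in which Oas1a, Oas1g and Oasl2 were high, so their higher places follow from this grouping. Transcripts contradict the label in flox/flox replicates 1 and 2.

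The make-up of the family's reads differed between the 3 libraries with the highest family totals and the other 5. The family summed to 75.9, 12.8 and 39.4 CPM in flox/flox, 7.92 and 16.7 CPM in wt/flox, and 17.1, 24.6 and 124.4 CPM in wt/wt. Oasl1 held 42.7% of the family's reads in flox/flox replicate 1 (95% Wilson interval 41.5% to 43.8%), 65.4% in replicate 2 (62.9% to 67.9%) and 41.6% in replicate 3 (40.3% to 43.0%). It held 73.9% and 74.0% in wt/flox and 79.6%, 81.1% and 36.7% in wt/wt. Thus its share was under 43.0% in the 3 libraries with the highest family totals and over 60% in the other 5. Oas1a and Oas1g together held 31.8%, 5.39% and 22.9% in flox/flox, 4.73% and 8.19% in wt/flox, and 3.85%, 4.13% and 28.0% in wt/wt. The ratio of Oasl2 to Oasl1 reads was 0.410, 0.0941 and 0.374 in flox/flox, 0.0800 and 0.0392 in wt/flox, and 0.0416, 0.0348 and 0.675 in wt/wt. The intervals cover counting error only. Reads placed at several sites were tallied apart, so reads that fit both Oas1a and Oas1g may be missing from these shares.

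**Figure D2:**
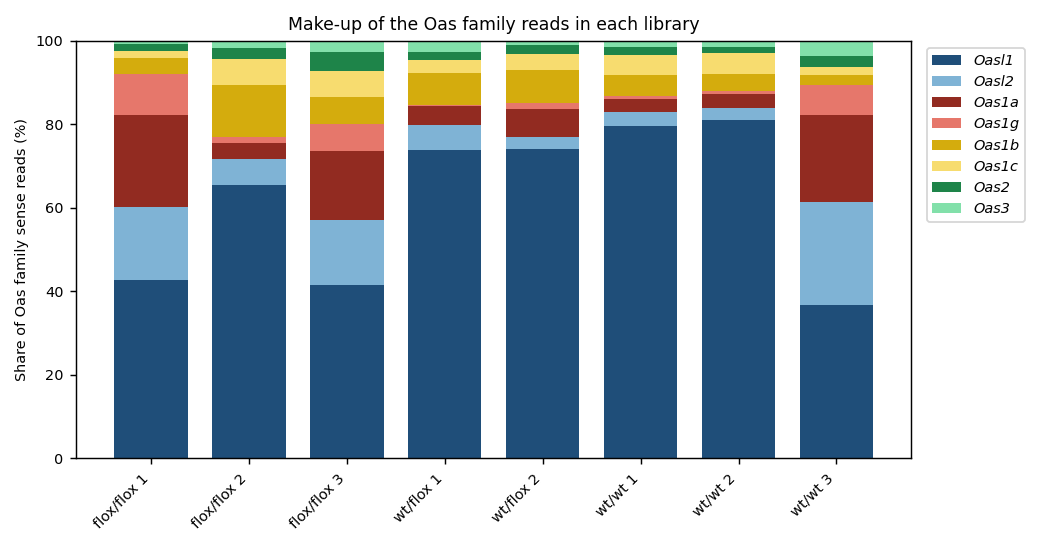
Share of the Oas family's sense reads (%) held by each member in each library, stacked to 100%. Oasl1 holds 36.7% to 42.7% in flox/flox replicates 1 and 3 and wt/wt replicate 3, and more than 60% in the other libraries.

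Between flox/flox and wt/wt, none of the 8 members passed the test: edgeR's quasi-likelihood test with Benjamini-Hochberg adjustment over 14728 genes called 0 of 8 at an adjusted p of 0.05, and over all genes tested 29.9% were called. Of the members 0 had an unadjusted p under 0.05, against 42.5% of all genes, and DESeq2 called 0, against 35.6%. The median log2 fold change of the members was -0.24, against 0.02 over all genes tested. Oas1b had the highest fitted log2 fold change, 0.58 (SE 0.54, edgeR adjusted p = 0.440), with 2.35 ± 0.698 CPM in flox/flox and 1.57 ± 1.16 CPM in wt/wt (SD, n = 3 each). Oas3 had the lowest, -1.40 (SE 1.07, adjusted p = 0.349), with 0.665 ± 0.438 CPM in flox/flox and 1.76 ± 2.50 CPM in wt/wt. Oas1a averaged 7.89 ± 8.17 CPM in flox/flox and 9.05 ± 14.5 CPM in wt/wt, and Oasl2 6.74 ± 6.27 and 10.7 ± 17.4 CPM. For Oas1a the SD exceeded the mean in both groups, and for Oasl2 in wt/wt. Of the 8 members 0 had groups that did not overlap, where 23.0% of all genes were higher and 22.0% lower without overlap.

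Without wt/wt replicate 3 all 8 log2 fold changes were above 0 and edgeR called 2 members, where 26.7% of all genes were called. They were Oas1b at 1.38 (SE 0.42, adjusted p = 0.0489) and Oasl2 at 3.41 (SE 1.04, adjusted p = 0.0495). Oas1a was at 3.53 and Oas1g at 4.40 in that fit, with edgeR adjusted p of 0.0843 and 0.0786. With any other library left out, the Oasl2 value lay below 0. Oas1b lay above 0 with each library left out in turn (0.28 to 1.38), while Oas1g reached -1.19 without flox/flox replicate 1 and Oas1c -0.43 without flox/flox replicate 3.

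**Figure D3:**
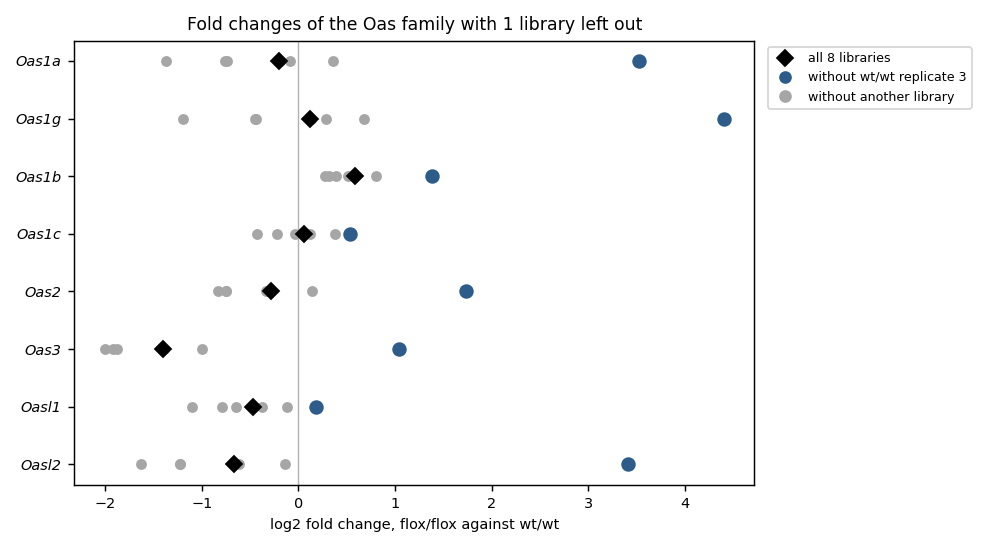
Fitted log2 fold change of each member, flox/flox against wt/wt, with all 8 libraries (diamonds), without wt/wt replicate 3 (blue) and without each other library (grey). Leaving out wt/wt replicate 3 moves every member to the right, to 4.40 for Oas1g and 3.41 for Oasl2.

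Between flox/flox and wt/flox, which share the batch 2 mark, the fitted log2 fold change was above 0 for 8 of 8 members, with a median of 1.96 against 0.04 over all genes tested, but edgeR called 0 of them and 0% of all genes. DESeq2 also called 0 members and 0.510% of all genes. Oas1g was at 4.71 (SE 2.45), Oasl2 at 3.82 (SE 2.01), Oas1a at 3.43 (SE 2.02) and Oas2 at 2.09 (SE 1.23), all with edgeR adjusted p of 0.559 to 0.580. Oas1c was the 1 member with an unadjusted p under 0.05, as had 8.42% of all genes, at 1.83 (SE 0.68, edgeR adjusted p = 0.558), with 1.54 ± 0.822 CPM in flox/flox (SD, n = 3) and 0.437 ± 0.287 CPM in wt/flox (SD, n = 2). In 4 members (Oas1b, Oas1c, Oas3 and Oasl2) every flox/flox library was above both wt/flox libraries, as were 14.2% of all genes. Flox/flox replicate 2 lay within the wt/flox range for Oas1a, Oas1g, Oas2 and Oasl1. With the labelled sex as a further term, Oas1a moved to -0.80 and Oasl2 to 0.08. Both wt/flox libraries were labelled male, and for both genes the label coincided with the split between high and low libraries. Transcripts contradict the label in flox/flox replicates 1 and 2. This fit therefore cannot decide how the genotypes differ, and no conclusion is drawn from it.

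Between wt/flox and wt/wt, the fitted log2 fold change was below 0 for 8 of 8 members, with a median of -2.74 against -0.06 over all genes tested, and edgeR called 0 of 8, where 12.5% of all genes were called. Without wt/wt replicate 3, Oasl2 was at -0.41, Oas1g at -0.31, Oas3 at -0.66, Oas2 at -0.36, Oas1c at -1.29 and Oasl1 at -0.89, while Oas1a and Oas1b lay above 0, at 0.10 and 0.09. This comparison uses the same 2 wt/flox libraries as the one before, so the opposite directions share those libraries. Oas1g was at -4.59 (SE 2.44), Oasl2 at -4.49 (SE 2.07) and Oas3 at -3.11 (SE 1.38), with edgeR adjusted p of 0.165 to 0.232. Oas1c again was the 1 member with an unadjusted p under 0.05, against 31.7% of all genes, at -1.76 (SE 0.68, edgeR adjusted p = 0.123). DESeq2 called 3 members lower (Oas1c, Oas3 and Oasl2, adjusted p of 0.0209 to 0.0476), where it called 23.8% of all genes. In 4 members (Oas1c, Oas3, Oasl1 and Oasl2) both wt/flox libraries lay below every wt/wt library, as they did for 29.3% of all genes.

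**Figure D4:**
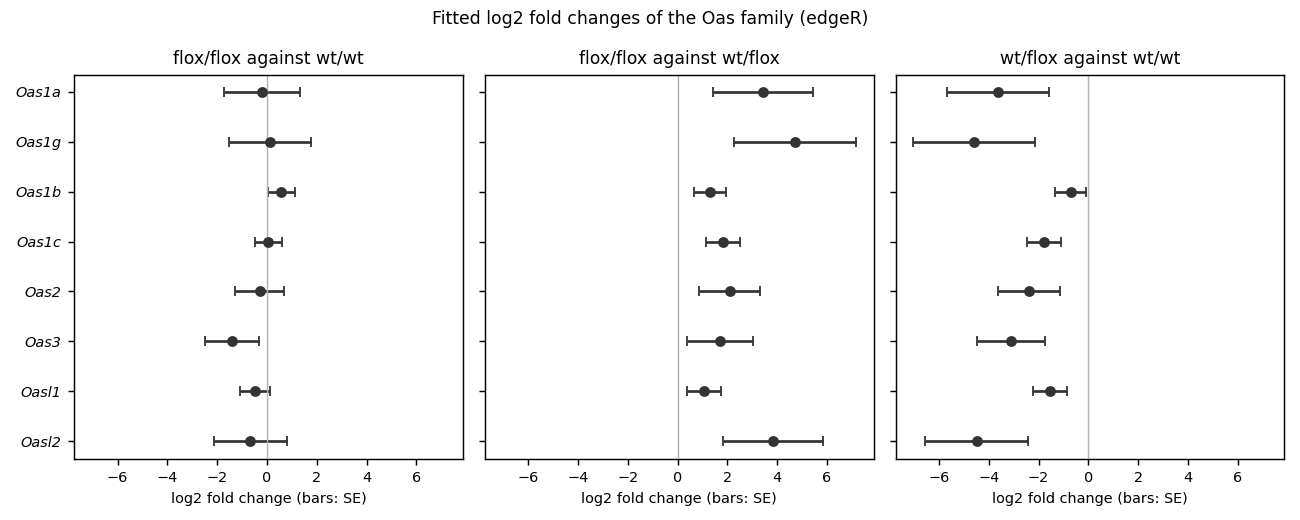
Fitted log2 fold changes (points) with their standard errors (bars) of the 8 members in the 3 genotype comparisons. The members lie on either side of 0 in flox/flox against wt/wt, all above it against wt/flox, and all below it in wt/flox against wt/wt.

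The split between high and low libraries coincided with the labelled sex. This was noticed after the values had been seen and is given as a description, with no test. The labelled females were flox/flox 1 and 3 and wt/wt 3, and the other 5 libraries were labelled male. Oas1a averaged 16.3 ± 9.65 CPM in labelled females (SD, n = 3) and 0.666 ± 0.298 CPM in labelled males (SD, n = 5), Oas1g 6.34 ± 3.39 and 0.154 ± 0.0927 CPM, and Oasl2 16.7 ± 12.7 and 0.600 ± 0.138 CPM. Oasl1 averaged 31.5 ± 14.7 CPM in labelled females and 12.0 ± 5.41 CPM in labelled males. For 7 of 8 members, all but Oasl1, every labelled female was above every labelled male, as was the case for 2.74% of all genes, and 1.19% of all genes had every labelled female below every labelled male.

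The sex read from transcripts gave no such split: flox/flox replicate 1, high for the family, had Y-linked reads, and replicate 2, low for the family, had Xist. By transcripts 0 of 8 members separated female from male libraries, where 3.80% of all genes were higher and 3.59% lower in female libraries without overlap. By age, both libraries of 7-week-old mice were high and the 3 of 9-week-old mice low, while of the 11-week-old mice flox/flox 1 was high and wt/flox 1 and wt/wt 1 were low. What sets the high libraries apart was not tested.

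Genes that act on 2'-5' oligoadenylates, or that are linked to their pathway, were read beside the family. Abce1, a ribosome recycling factor, had 68.2, 59.9 and 37.1 CPM in flox/flox, 73.0 and 70.9 CPM in wt/flox, and 89.8, 99.1 and 80.7 CPM in wt/wt. It fell in flox/flox against wt/wt by 0.71 on the log2 scale (SE 0.21, edgeR adjusted p = 0.0392), without overlap. In that comparison 29.9% of all genes were called and 22.0% were lower without overlap. Both wt/flox libraries also lay below every wt/wt library for Abce1, as they did for 29.3% of all genes. Genotype and the batch 2 mark cannot be told apart in either comparison. In flox/flox against wt/wt, Pde12, which degrades 2'-5' oligoadenylates, was at -0.68 (SE 0.34, edgeR adjusted p = 0.164). Akap7, whose mouse protein can do the same, was at 0.00 (SE 0.19, edgeR adjusted p = 0.999). Neither was called. Against wt/flox, and in wt/flox against wt/wt, edgeR called none of Abce1, Pde12 and Akap7. The other Oas1 copies of the mouse cluster had almost no sense reads: Oas1d and Oas1f had 0 in every library, which allows up to 3 reads, Oas1e at most 1 and Oas1h at most 2. On the opposite strand Oas1h had 14, 1 and 11 reads in flox/flox, 0 in both wt/flox libraries, and 0, 0 and 16 in wt/wt.

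The interferon genes themselves were near 0. Of 14 type I and III interferon genes, 13 had 0 reads in all libraries, Ifnb1 among them. Ifnk, the interferon best known from skin keratinocytes, had 8, 17 and 16 reads in flox/flox, 2 and 1 reads in wt/flox, and 2, 0 and 3 reads in wt/wt. This sense count passed the test in flox/flox against wt/wt (edgeR adjusted p = 0.0296, log2 fold change 2.87 with an SE of 0.79) and was at 2.59 against wt/flox (adjusted p = 0.558). The opposite strand of Ifnk held far more reads: 360, 576 and 830 in flox/flox, 307 and 351 in wt/flox, and 181, 116 and 188 in wt/wt. Whether the sense reads stem from Ifnk transcripts was not tested. Ifnar1, a chain of the type I interferon receptor, rose in both groups that carry the batch 2 mark: its log2 fold change was 0.69 (SE 0.11, edgeR adjusted p = 0.00463) in flox/flox against wt/wt and 0.68 (SE 0.12, adjusted p = 0.0183) in wt/flox against wt/wt. Between flox/flox and wt/flox it was at 0.01 (SE 0.13).

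Among regulators, Irf7 shared its 3 highest libraries with the family. Irf7, an interferon-induced transcription factor, had 57.5, 11.0 and 37.9 CPM in flox/flox, 8.28 and 12.2 CPM in wt/flox, and 13.6, 18.3 and 112.2 CPM in wt/wt. Irf9, a DNA-binding partner of STAT2, ranged from 24.2 to 36.0 CPM in flox/flox, 18.8 to 24.6 in wt/flox and 21.3 to 52.4 in wt/wt. Isg15, a ubiquitin-like modifier, had 5.90, 2.62 and 5.51 CPM in flox/flox, 0.959 and 1.96 CPM in wt/flox, and 4.13, 5.48 and 39.4 CPM in wt/wt. Neither Irf7, Irf9 nor Isg15 was called by edgeR in a genotype comparison.

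Genes most like the family were sought among 11195 genes with a mean of at least 1 CPM, by the root-mean-square difference between log2(CPM + 0.5) values centred on their mean over 8 libraries. The standard was the mean profile of the 6 members with at least 1 CPM, which stood at 1.54, -0.84 and 0.83 in flox/flox, -1.37 and -0.74 in wt/flox, and -0.88, -0.59 and 2.05 in wt/wt, on that log2 scale. The 6 nearest were Irf7 (difference 0.18), Slfn8 (0.20), Trim30d (0.21), Trim30a (0.21), Ifi27 (0.26) and Gm12250 (0.30), while the median gene was at 1.25. Single members were further off than these, from 0.47 for Oas1g to 0.75 for Oas1c. Likeness over 8 libraries describes shared highs and lows only.

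**Figure D5:**
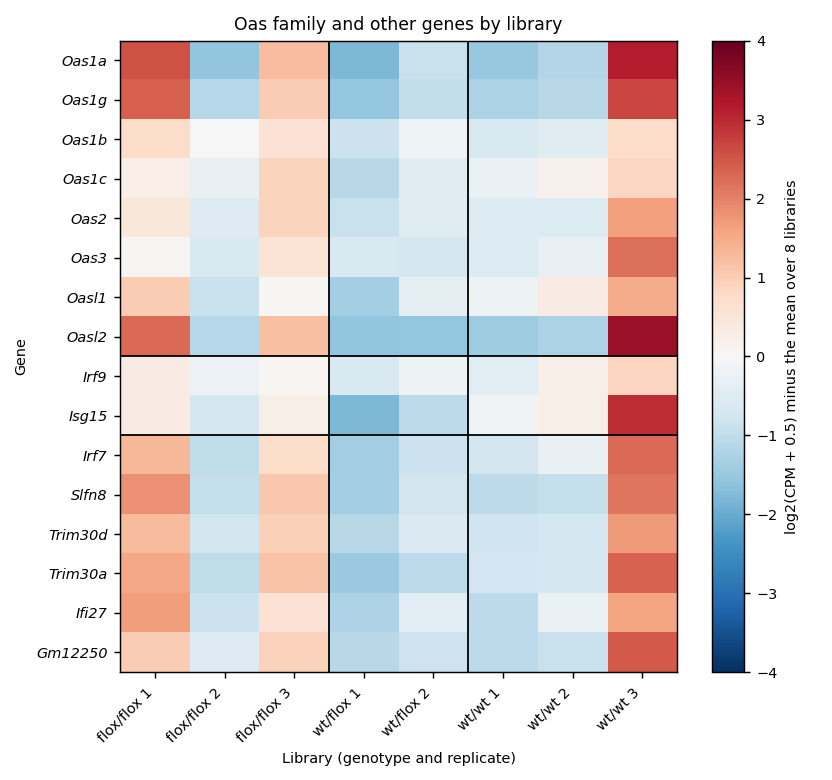
log2(CPM + 0.5) minus its mean over the 8 libraries, for the 8 members (top), Irf9 and Isg15 (middle) and the 6 genes nearest to the family's mean profile (bottom), with libraries in columns. Red cells gather in flox/flox 1 and 3 and wt/wt 3.

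Other interferon-stimulated effectors were not called by genotype either. Of 30 listed, 28 were tested and edgeR called 0 in each genotype comparison, with 11 of 28 log2 fold changes above 0 in flox/flox against wt/wt, 28 of 28 against wt/flox and 1 of 28 in wt/flox against wt/wt. Their medians were -0.13, 1.35 and -1.32, in the same order. The nearest to a call were Ifi35 in both comparisons with wt/wt (edgeR adjusted p = 0.0769 and 0.0661) and Samd9l against wt/flox (log2 fold change 1.63, adjusted p = 0.558).

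Markers of other liver cells also differed between libraries. Per the labels' protocols, liver cells were freed with collagenase and taken from a Percoll gradient, and hepatocyte markers were abundant throughout. The 12 hepatocyte markers summed to 161600 to 238100 CPM in flox/flox, 150100 to 171400 CPM in wt/flox and 101100 to 117900 CPM in wt/wt. Alb alone had 98250 to 171700 CPM in flox/flox and 63590 to 79950 CPM in wt/wt. In flox/flox against wt/wt, 7 of the 12 had log2 fold changes above 0, with a median of 0.16. EdgeR called 3 of them higher and 1 lower (Hpd, -0.68, SE 0.21, adjusted p = 0.0427), where 29.9% of all genes were called. The 12 Kupffer cell and macrophage markers summed to 53.0, 35.1 and 122.7 CPM in flox/flox, 35.0 and 36.3 CPM in wt/flox, and 63.3, 62.5 and 267.0 CPM in wt/wt, with 0 of the 12 at 0 reads throughout. They were highest in wt/wt 3 and flox/flox 3, where the family was high. Flox/flox 1 had a macrophage sum of 53.0 CPM with a family total of 75.9 CPM, and wt/wt 1 and 2 had 63.3 and 62.5 CPM with totals of 17.1 and 24.6 CPM. In bulk samples, fewer cells of a type and less RNA per cell cannot be told apart, and which cells held the Oas reads was not measured.

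EdgeR called 0 of the 12 macrophage markers in each genotype comparison. In flox/flox against wt/wt 2 had an unadjusted edgeR p under 0.05, as had 42.5% of all genes. Against wt/flox 0 had one, where 8.42% of all genes did, and in wt/flox against wt/wt 7 had one, where 31.7% did. The 10 monocyte and dendritic cell markers summed to 8.22 to 38.0 CPM in labelled females and 5.30 to 10.6 CPM in labelled males. Neutrophil markers, with S100a8 and S100a9 among them, summed to 0.924, 0.905 and 10.9 CPM in wt/wt 1, 2 and 3. They summed to 0.617 to 1.81 CPM in flox/flox and were at most 1.12 CPM in wt/flox, so among wt/wt libraries only wt/wt 3 stood out. S100a9 fell in flox/flox against wt/wt (-3.62, SE 1.17, edgeR adjusted p = 0.0496). Endothelial markers summed to 79.5 to 168.9 CPM in flox/flox, 92.1 to 103.7 CPM in wt/flox and 183.3 to 291.4 CPM in wt/wt. Of these 10, edgeR called 6 lower in flox/flox against wt/wt, where 29.9% of all genes were called. It called 5 lower in wt/flox against wt/wt, where 12.5% of all genes were called. Genotype and the batch 2 mark cannot be told apart in either comparison. Of T and NK cell, B cell and cholangiocyte markers, edgeR called Cd4 and Sox9 lower in flox/flox against wt/wt and no other. The part of these markers in the Oas values was not tested.

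Reads on the strand opposite the members were few. Over all libraries they made up from 4.38% (Oas1a) to 8.22% (Oasl1) of a member's reads, against a median of 6.94% over the genes tested. The cluster's divergent pair was not set apart, with 5.15% for Oas1b and 6.46% for Oas1c.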

How the data were processed

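Bulk RNA sequencing libraries of liver cells from 8 mice were analysed. Per the file headers, the authors deposited raw counts of reads on each gene's sense and antisense strand. GRCm38 (mm10) and DESeq2 appear in the submitters' processing notes. Aligner, counter, annotation: not given in the sources used here. The 5 entries that name no gene were left out. Reads in no gene made up 22.2% to 28.1% of sense reads in wt/wt, 31.65% to 37.3% in wt/flox and 34.5% to 40.0% in flox/flox. Every wt/wt library was thus below every library with the batch 2 mark. Gene positions and exon lengths come from GENCODE M21 (96.4% of symbols matched).

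Sense counts were tested with edgeR 4.0.16 (R 4.3.3): quasi-likelihood F test, TMM, filterByExpr, all 8 libraries in 1 fit with genotype as the only term, Benjamini-Hochberg adjustment at 0.05 over the 14728 genes kept, two-sided. All 8 Oas genes passed the filter. The labelled sex was kept out of that fit because transcripts contradict it in 2 libraries. Standard errors were derived from the fold change and F statistic. CPM use TMM-adjusted sizes. Nothing in the labels says more of how mice were sampled, so p-values measure the spread between these samples.

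Alternatives were RLE size factors, no filter, DESeq2 1.42.0, sense plus antisense reads, sex terms, the replicate number as a block, and each library left out. The fits without both libraries of contradicted sex were added after seeing the data. The scripts were tested on simulated counts. Members, lists and the rule for named genes (all members, 2'-5' oligoadenylate genes and Oas1 copies, at most 2 called genes per other list or else the smallest p, regulators and the 6 most alike genes) were chosen with earlier results of these data known. Some genes of these lists are not reported here.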

Additional observations from a re-analysis of the deposited data

How the results depend on the processing

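Values uncalled before and after were counted as unchanged, also where the sign turned. In flox/flox against wt/wt, 0 members were called under each alternative except that leaving out single libraries gave 0 to 2, the 2 being Oas1b and Oasl2 without wt/wt replicate 3 (Oasl2 ranged from -1.63 to 3.41 with single libraries left out); over 17 alternatives the sign turned in up to 5 per member. In flox/flox against wt/flox, every alternative called 0 members. In wt/flox against wt/wt, DESeq2 called 3 members and every other alternative 0; without wt/wt replicate 3, Oasl2 was at -0.41 and Oas1g at -0.31. The replicate number went with age in every group: 11 weeks for replicate 1, 9 weeks for replicate 2 and 7 weeks for replicate 3. Same-numbered flox/flox and wt/wt libraries correlated at 0.33, 0.00 and 0.43 in their deviations from group means, and differently numbered ones from -0.49 to 0.35. The main fit did not take the numbers as pairs, and these values do not decide whether they are. With the replicate number as a block, 0 members were called in each comparison, and it changed no other call; over all genes it called 4794, 0 and 1439, against 4400, 0 and 1837 without it, in the 3 genotype comparisons in the order above. Whole-table counts past 1.5 times were 2807 and 2195 (leaving out wt/wt replicate 1 or 2) and 2915 (both contradicted libraries left out) in flox/flox against wt/wt. DESeq2 called 75 against wt/flox and 3296 in wt/flox against wt/wt, where leaving out 1 library gave 0 (either wt/flox library) to 1001. The causes were not tested. Groups held 2 or 3 libraries, with within-group ranges up to 74.1 times. Reads as low as 1 per library limit Oas1g, and those of Oas2 and Oas3 in wt/flox (13 to 25) carry wide counting error.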
